A study of Mus musculus with 36 samples.

Results

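The mitochondrial ribosomal protein (MRP) genes were taken as the protein-coding entries of the count table whose GENCODE symbol is Mrpl or Mrps followed by a number and an optional letter. Of the 55492 genes in the table, 78 fitted this rule, and all 78 had a mean count above 5 over the 36 libraries, as did 20355 genes in all. The 78 genes carry 49 Mrpl and 29 Mrps symbols and lie on 17 chromosomes. Their mean counts ran from 107 to 1215, and the lowest count of any of them in any library was 15.

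The libraries were made from C57EDCX cells, dissociated embryonic day 18 mouse cortical cells from BrainBits that were grown as a primary neuron culture. After the culture period the medium was replaced by medium with 1 µM dexamethasone (DEX, a glucocorticoid receptor agonist), by medium with 1 µM DEX and 1 µM of the receptor antagonist mifepristone (DEX + RU-486), or by fresh medium (control), for 72 h. Each group has 12 libraries, 6 in each of the 2 batches that the labels name. The labels do not say that the libraries of a group came from separate animals or cultures, so p-values measure the spread between these libraries. These are bulk samples of a mixed culture, in which fewer cells of a type and less RNA per cell cannot be told apart.

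The mitochondrial ribosome makes the few proteins encoded by mitochondrial DNA, all of them subunits of the respiratory chain or of ATP synthase. Its 12S and 16S ribosomal RNAs are transcribed inside the organelle, while every one of its proteins is encoded in the nucleus, translated by the cytosolic ribosome and imported. Some of these proteins descend from those of the bacterial ancestor and others were added later, and defects in several of them cause oxidative phosphorylation disorders that often affect brain and muscle.

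By known position in the ribosome, 51 of the 78 encode proteins of the large subunit, among them Mrps18a and Mrps30 in spite of their symbols, and 26 encode proteins of the small subunit. Mrps36 fits the naming rule only, since its product belongs to the 2-oxoglutarate dehydrogenase complex of the citric acid cycle. A bacterial counterpart was listed for 45, and the other 33 were grouped as particular to mitochondria. That group also holds Mrps36, and Mrps18a and Mrps18b, which are relatives of bacterial S18. Exon bases are shared with a gene on the same strand for 8 and on the opposite strand for 28, and the strand setting of the counting is not given in the sources used here, so counts of these genes are uncertain to that extent. The overlap is widest for Mrpl53, which shares 695 of its 790 exon bases with Gm42688 on its own strand and 15 with Ccdc142os on the other, and it is 464 of 1533 bases for Mrps6, which lies across Slc5a3. Among 5 processed pseudogenes with an MRP name, Mrpl23-ps1 had a mean count of 91.8, Mrpl48-ps of 16.4 and Mrps36-ps1 of 5.42, and the others were under 5.

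Promoter sequences from RefSeq (build GRCm38.p6, from 250 bases before to 50 after each start) were at hand for 69 of the 78 genes, in 75 windows. They were searched on both strands for the core letters of factors known from nuclear genes of mitochondrial proteins and for a glucocorticoid receptor motif, with overlapping matches all counted. The ETS core CCGGAAG, which GABP (NRF-2) binds, was in 34.7% of the MRP windows, in 35.6% of the 73 windows of cytosolic ribosomal protein genes (RPGs) and in 8.86% of all 32851 windows. The NRF1 core GCGCATGC was in 10.7%, 4.11% and 2.71%, and the YY1 core AAGATGGCG in 10.7%, 8.22% and 1.40%. The E-box CACGTG was in 9.33%, 11% and 7.15%. The glucocorticoid response element core ACANNNTGT was in 3 MRP windows (4.0%), those of Mrpl23, Mrpl34 and Mrpl45, against 6.85% of all windows, and the ERR core TCAAGGTCA was in 0 of the 75 and in 0.423% of all. The MRP windows also had more G and C, with a median of 58.7% against 52.7% over all windows. A match is a description of the letters and not evidence of binding.

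Windows of 4 genes are printed because they carry these cores and because Mrpl3 and Mrpl53 return in the comparisons below; capitals mark the matches on either strand. Mrpl3 (chr9:105053018-105053317, plus strand) has an ETS core 19 bases before the start, Mrpl53 (chr6:83108858-83109157, plus strand) has ETS cores at 59 and 16 bases before it, Mrpl32 (chr13:14612988-14613287, minus strand) has 4 overlapping or separate NRF1 cores, and Mrps11 (chr7:78782881-78783180, plus strand) has a YY1 core.
Mrpl3: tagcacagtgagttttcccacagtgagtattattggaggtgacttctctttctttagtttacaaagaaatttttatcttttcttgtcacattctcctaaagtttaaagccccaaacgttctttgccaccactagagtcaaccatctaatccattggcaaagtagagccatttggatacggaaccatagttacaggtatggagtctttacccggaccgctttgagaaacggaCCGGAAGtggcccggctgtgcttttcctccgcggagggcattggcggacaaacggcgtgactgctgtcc
Mrpl53: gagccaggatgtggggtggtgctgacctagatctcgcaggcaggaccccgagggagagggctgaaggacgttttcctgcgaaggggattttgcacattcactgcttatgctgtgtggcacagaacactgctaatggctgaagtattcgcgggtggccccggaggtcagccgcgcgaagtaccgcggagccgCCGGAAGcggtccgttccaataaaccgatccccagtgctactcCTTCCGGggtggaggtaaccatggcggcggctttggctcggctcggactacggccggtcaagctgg
Mrpl32: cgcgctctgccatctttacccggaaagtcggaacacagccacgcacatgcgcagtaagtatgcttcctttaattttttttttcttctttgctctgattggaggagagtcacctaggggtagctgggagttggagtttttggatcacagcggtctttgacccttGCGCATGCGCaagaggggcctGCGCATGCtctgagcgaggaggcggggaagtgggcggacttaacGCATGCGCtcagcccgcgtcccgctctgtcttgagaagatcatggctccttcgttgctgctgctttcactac
Mrps11: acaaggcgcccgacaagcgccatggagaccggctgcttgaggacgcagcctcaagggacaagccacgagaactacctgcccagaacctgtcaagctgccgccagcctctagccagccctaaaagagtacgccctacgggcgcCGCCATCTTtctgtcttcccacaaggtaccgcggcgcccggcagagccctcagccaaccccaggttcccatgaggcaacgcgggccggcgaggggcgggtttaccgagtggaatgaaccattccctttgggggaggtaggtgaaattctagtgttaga

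Many MRP genes start back to back with another gene. A protein-coding start on the opposite strand, within 1000 bases upstream or overlapping by at most 500, was found for 26 of the 78 (33.3%), for 16 of 83 RPGs (19.3%) and for 1944 of 14672 protein-coding genes tested (13.2%). Mrps12, whose protein lines the decoding centre, starts 172 bases from Sars2, the mitochondrial seryl-tRNA synthetase gene. Mrpl49 starts 59 bases from Fau, itself a cytosolic ribosomal protein gene, Mrpl36 overlaps the start of Ndufs6, a subunit gene of respiratory complex I, and Mrps11 and Mrpl46 form a pair within the family.

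Levels are given as counts-per-million (CPM) values scaled with TMM factors, a scaling that sets the bulk of genes equal between libraries. Per kb of exon, over the 10 control libraries with an RNA integrity number (RIN, a 1 to 10 score of RNA intactness) of 6 or above, the median MRP gene stood at 5.52 CPM per kb, the median RPG at 68.3 and the median of all genes tested at 1.53. Large and small subunit genes had medians of 5.88 and 5.19 CPM per kb. The range within the family was from 1.12 to 20.2. The 5 highest were Mrpl12 with 20.2 ± 4.96 CPM per kb (SD, n = 10; chr11:120484613-120489065), Mrpl41 with 18.1 ± 5.15 (chr2:24974117-24975098), Mrps21 with 17.2 ± 5.36 (chr3:95862634-95871519), Mrpl28 with 16.4 ± 3.47 and Mrpl18 with 13.8 ± 2.65, so that the first 4 lie within 1 SD of each other. These SDs hold both batches, in which Mrpl12 was at 23.7 ± 2.82 (n = 6) and 15 ± 0.648 (n = 4) CPM per kb, and while Mrpl12 was the highest in each, Mrpl28 was the fourth in batch 1 and the second in batch 2. Mrpl12 encodes the stalk protein that also binds the mitochondrial RNA polymerase. The 5 lowest were Mrpl33 with 1.12 ± 0.146 (SD, n = 10), Mrps35 with 1.72 ± 0.164, Mrpl13 with 1.78 ± 0.245, Mrpl17 with 1.85 ± 0.172 and Mrps16 with 2.02 ± 0.442. All coordinates are GRCm38.

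Total counts per library ran from 12133485 to 82437454 and RIN from 1.4 to 9.2. A RIN under 3 was given for 6 libraries, 2 from each treatment and all in batch 2, and the 28 libraries with a RIN of 6 or above were 16 of batch 1 and 12 of batch 2. Within batch 1 the control libraries had RIN 7.8 to 9.2 and the DEX libraries 3.9 to 7.8, and all 6 control libraries had more counts than any DEX library, so treatment, RIN and depth cannot be told apart there. Over the libraries of RIN 6 or above, 8 neuronal markers summed to 1830 to 3219 CPM and 5 astrocyte markers to 14.5 to 46.3 CPM, and of 5 microglial markers P2ry12 and Tmem119 were under the count filter. Of 5 known glucocorticoid receptor targets, 0 passed the test in the DEX comparison of all libraries, and Per1 (log2 fold change 0.45) and Zbtb16 (0.70) did at RIN 6 or above. In batch 1 Per1 was at 31.5 to 66.6 CPM in control, 53.3 to 98.6 in DEX and 51.4 to 99.8 in DEX + RU-486. In batch 2 at RIN 6 or above Per1 was at 53.7 to 60.2 in control and 46.7 to 63.6 in DEX, which overlap. Zbtb16 was there at 4.44 to 6.27 and 6.31 to 7.84.

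The mean level of the family was slightly lower in both treated groups than in control among the intact libraries and not at RIN under 3, and the groups overlapped. The mean log2 CPM over the 78 genes was 3.68 ± 0.19 in control, 3.59 ± 0.16 in DEX and 3.59 ± 0.16 in DEX + RU-486 (SD, n = 12 each), differences from control of -0.09 and -0.08, where the spread of each group holds both batches and the low RIN libraries. In batch 1 the values were 3.83 ± 0.09, 3.68 ± 0.13 and 3.68 ± 0.12 (n = 6 each). In the batch 2 libraries of RIN 6 or above they were 3.51 ± 0.03, 3.41 ± 0.07 and 3.45 ± 0.05 (n = 4 each). Among intact libraries the mean difference of DEX from control was -0.14 in batch 1 and -0.09 in batch 2, each over the larger SD of the 2 groups, and the ranges overlapped, with control at 3.65 to 3.89 and DEX at 3.57 to 3.91 in batch 1, and 3.47 to 3.54 against 3.34 to 3.50 in batch 2. Batch 2 libraries with a RIN under 3 had 3.62 ± 0.17, from 3.40 to 3.81 (n = 6), where control was at 3.40 and 3.74, DEX at 3.66 and 3.67 and DEX + RU-486 at 3.42 and 3.81. The mean of both treated groups was above that of control there. Over all batch 2 libraries the median log2 fold change of the family stood 0.00204 from that of all genes in DEX and 0.000578 in DEX + RU-486. The RPGs varied more. Their mean log2 CPM was 6.65 ± 0.18 in the intact batch 2 libraries (n = 12) and 8.21 ± 0.28 in those with a RIN under 3 (n = 6), ranges of 6.28 to 6.85 and 7.87 to 8.55 that do not overlap.

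**Figure D1:**
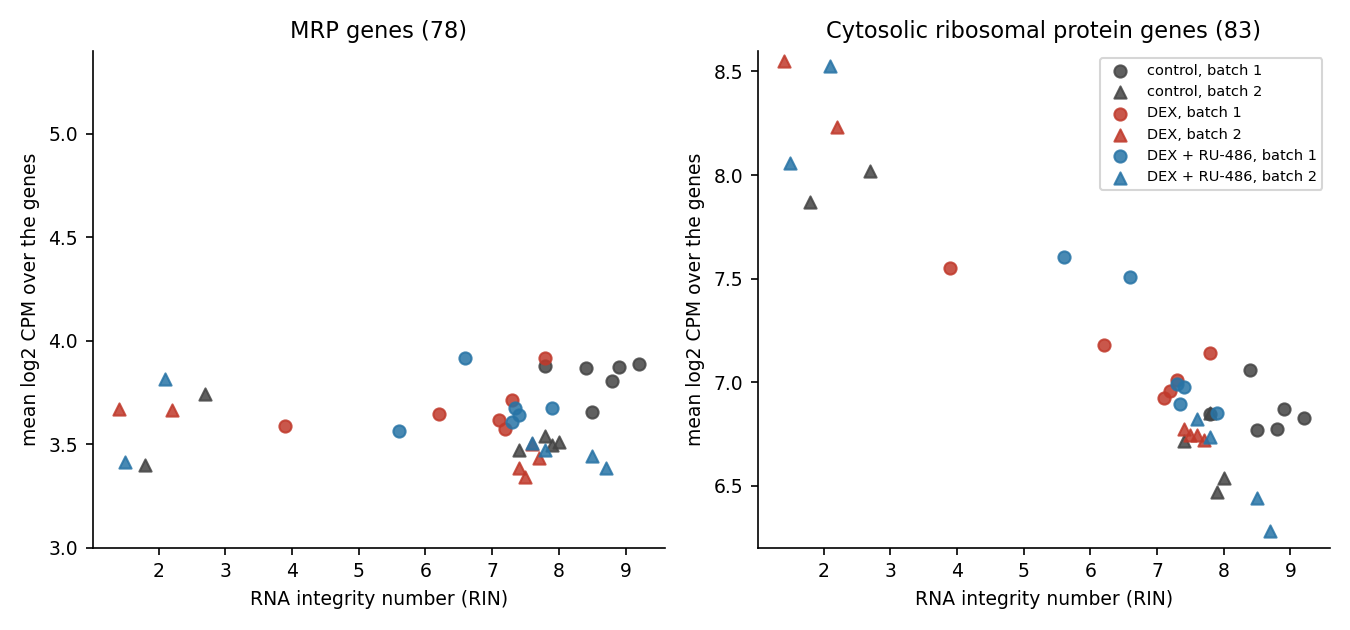
Mean log2 CPM over the 78 MRP genes and over the cytosolic ribosomal protein genes in each of the 36 libraries (y axes) against the library's RIN (x axis), with colours for treatment and symbols for batch. The MRP values of the 6 libraries with a RIN under 3 (3.40 to 3.81) lie among those of the intact libraries, while their RPG values (7.87 to 8.55) lie above all intact batch 2 libraries.

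What the MRP genes were counted against changed their share of the library. The mitochondrial 12S and 16S ribosomal RNAs, mt-Rnr1 and mt-Rnr2, held 9.54% to 66.9% of all counts, with a median of 30.6%. In batch 1 they held 9.54% to 19.1% in control, 20.8% to 47.4% in DEX and 24.8% to 45.0% in DEX + RU-486, with no overlap between control and either treated group. In the intact batch 2 libraries they held 23% to 30.7%, 33.5% to 35.5% and 19.8% to 31.9%, so there only DEX stood apart, and at RIN under 3 they held 43.0% to 66.9%. The summed MRP counts were 539 to 1638 CPM when set against all counts of a library, without scaling factors. Set against the counts outside chromosome M they were 1384 to 2015 CPM, with 1752 ± 134 in control, 1685 ± 139 in DEX and 1697 ± 132 in DEX + RU-486 (SD, n = 12 each). The part of the ribosomal RNAs in each gene's change was not tested. With the mitochondrial genes left out of library sizes and tests, 0 MRP genes passed in any of the 3 treatment comparisons. Of all genes in those fits, 0.0197% were higher and 0.00983% lower in DEX against control, and 0 in the others.

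**Figure D2:**
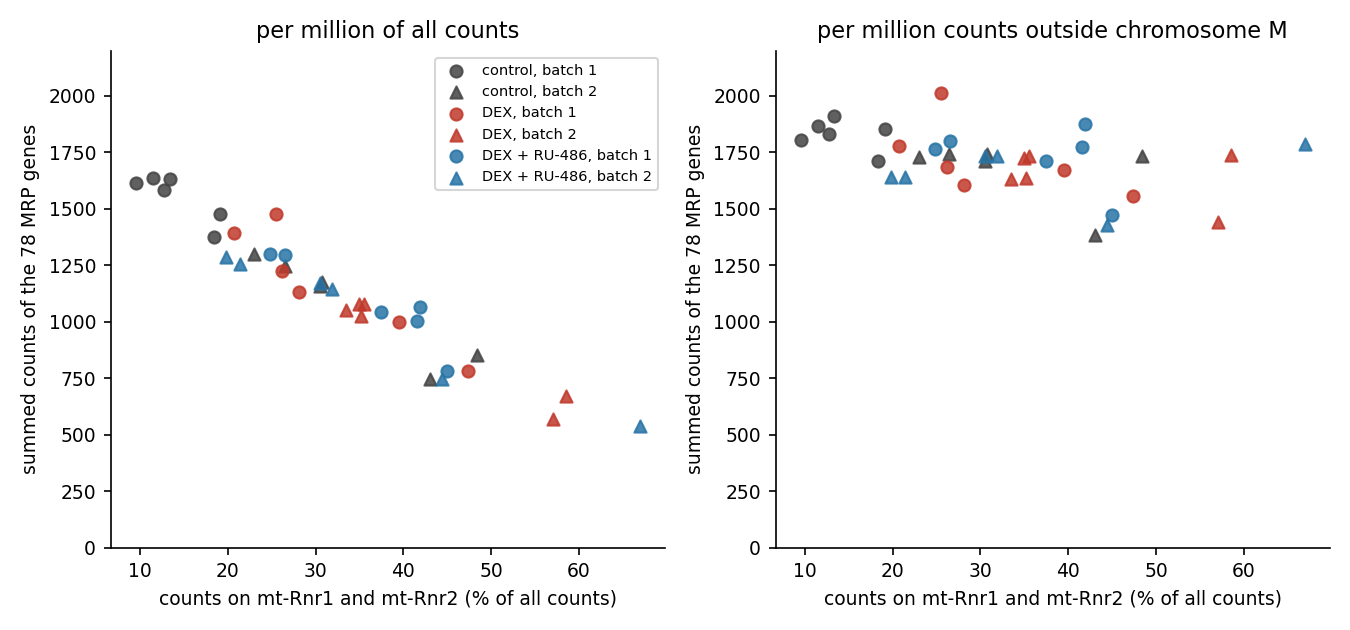
Summed CPM of the 78 MRP genes without scaling factors, set against all counts and against the counts outside chromosome M (y axes) against the percentage of counts held by mt-Rnr1 and mt-Rnr2 (x axis), 1 point per library. The first quantity spans 539 to 1638 and falls as the ribosomal RNA share rises, and the second spans 1384 to 2015.

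The comparison of DEX with control asks whether glucocorticoid exposure moved the genes of this ribosome. With all 36 libraries and batch as a covariate, 0 of the 78 passed an adjusted p of 0.05 (edgeR's quasi-likelihood test, Benjamini-Hochberg adjustment), as did 0 in DEX + RU-486 against control and 0 in DEX + RU-486 against DEX. Of all genes tested, 0.0147% were higher and 0.00983% lower by this rule in the first comparison, and 0 in the others. DESeq2 called 1 lower in the first, Mrpl3 (-0.40, adjusted p = 0.0492), beside 1.54% of all genes higher and 1.47% lower. It called 0 in DEX + RU-486 against control, beside 0.403% of all genes higher and 0.635% lower, and 0 against DEX, beside 0% and 0.00984%. At an unadjusted p under 0.05, DEX had 1 MRP gene higher and 12 lower, where 6.86% of all genes tested were higher and 10.1% lower. By the same rule DEX + RU-486 had 0 higher and 4 lower against control (background 4.19% and 6.63%), and 0 higher and 1 lower against DEX (background 1.44% and 1.23%). The median log2 fold change of the family in DEX was -0.05, with 31 of 78 above 0, beside -0.01 for all genes, a distance of -0.04. Upper-quartile scaling moved the family to 0.00278 and all genes to 0.05, which left the distance at -0.04, and with a filter of at least 10 counts in every library both medians were 0.01. The RPG median was 0.30, with 81 of 83 above 0, but with RIN as a covariate it turned to -0.06, with 26 of 83 above 0, beside -0.10 for the MRP genes.

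By role, the large subunit genes had a median log2 fold change of -0.08 in DEX over all libraries and the small subunit genes of 0.01. The smallest p in DEX belonged to Mrpl3, a core protein of the large subunit (log2 fold change -0.45 ± 0.13 SE, edgeR quasi-likelihood adjusted p = 0.0916). Mrpl19, Mrpl16, Mrpl13 and Mrpl41 of the large subunit had log2 fold changes of -0.41, -0.44, -0.28 and -0.25, with adjusted p from 0.109 to 0.171. Mrps17 and Mrps6 of the small subunit had -0.23 (adjusted p = 0.187) and -0.32 (adjusted p = 0.238), and Mrpl15 had 0.30 (adjusted p = 0.175). In DEX + RU-486 against control the leading genes were Mrpl41 (-0.28, adjusted p = 0.246), Mrpl3 (-0.37, adjusted p = 0.286) and Mrpl16 (-0.39, adjusted p = 0.296). Both treated groups share the control libraries, so these are not separate evidence. Between DEX + RU-486 and DEX the smallest p belonged to Mrps33 (-0.23, adjusted p = 1.00).

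Among the 28 libraries of RIN 6 or above the picture differed. In that fit 10 MRP genes fell and 1 rose in DEX, which is 10 and 1 of 78 beside a background of 11.9% lower and 7.83% higher over all genes tested. The share of the family that fell was therefore near that of all genes. The 10 were 8 large and 2 small subunit genes, the median log2 fold change was -0.08 beside 0.01 for all genes, and 22 of 78 were above 0. RPGs had 11 of 83 higher, 0 lower and a median of 0.16. In DEX + RU-486 against control 2 MRP genes fell and 0 rose (background 5.87% lower and 2.99% higher), Mrpl3 (-0.36, edgeR adjusted p = 0.00501) and Mrpl41 (-0.30, adjusted p = 0.0344). With RIN as a covariate over all libraries 0 MRP genes passed in either direction, beside 0.919% of all genes higher and 1.32% lower. In that fit 0 RPGs passed, and their median was below 0 like that of the MRP genes. At an unadjusted p under 0.05, 1 MRP gene was higher and 14 lower, where 8.82% of all genes were higher and 11.4% lower. The genes named from here to the end of the DEX comparison, unless given above, were chosen after their values were seen.

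Mrpl3 (chr9:105053239-105079888) had the smallest adjusted p. In batch 1 its lowest, median and highest level was 28.9, 32.2 and 36 CPM in control, 10.1, 21.4 and 24.6 in DEX, and 16.5, 22 and 26.2 in DEX + RU-486. Every treated library of batch 1 was thus below every control library. In the intact batch 2 libraries it was at 22.8, 25.4, 28.5 and 29.3 CPM in control, 22.8, 21.2, 25.6 and 22.1 in DEX and 22.2, 22.5, 23.5 and 26 in DEX + RU-486, and there the groups overlap. The log2 fold change in DEX at RIN 6 or above was -0.40 ± 0.08 (SE), a level of 0.757 of control (edgeR adjusted p = 0.000807). Mrpl3 also moved with RNA intactness, since it rose by 0.27 log2 units per RIN unit within the groups of batch 1 (adjusted p = 0.000861) and was lower at RIN under 3 in batch 2 (-0.53, adjusted p = 0.000757). The slope did not pass without the batch 1 libraries of RIN 3.9 and 5.6 (0.13, adjusted p = 0.388). With RIN as a covariate its log2 fold change was -0.33 (adjusted p = 0.0501).

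Mrps6 (chr16:92058270-92112227), a small subunit protein with a bacterial counterpart, behaved differently in the 2 batches. In batch 1 it was at 12.9, 16.9 and 18.8 CPM in control (lowest, median, highest), 5.62, 10.4 and 11.7 in DEX, then 6.55, 13.6 and 14.5 in DEX + RU-486. In intact batch 2 it was at 11.6, 9.38, 9.6 and 10.3 CPM in control and 12, 10.5, 9.01 and 10.1 in DEX. DEX and control libraries were apart in batch 1 and overlapped in batch 2. For DEX the log2 fold change of Mrps6 was -0.74 in batch 1 (edgeR adjusted p = 0.0104) and 0.04 in intact batch 2, and -0.36 over both at RIN 6 or above (adjusted p = 0.0253). Mrps6 also rose with RIN in batch 1 (0.27 log2 units per RIN unit, adjusted p = 0.0196), which did not pass without the batch 1 libraries of RIN 3.9 and 5.6 (0.07, adjusted p = 0.788).

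Mrpl53 (chr6:83109040-83109939) had the lowest log2 fold change at RIN 6 or above, and its groups were apart in batch 2. There it was at 4.43, 5.84, 4.55 and 4.44 CPM in the 4 control libraries, at 1.92, 1.56, 2.17 and 2.69 in the 4 DEX libraries and at 4.54, 3.21, 4.02 and 4.11 in the 4 DEX + RU-486 libraries. The DEX libraries were all below the others. In batch 1 the groups overlapped, with 4.33 to 5.47 CPM in control and 2.88 to 8.34 in DEX. For Mrpl53 the log2 fold change was -0.67 ± 0.17 (SE) over both batches (edgeR adjusted p = 0.00585), -0.25 in intact batch 1 and -1.19 in intact batch 2 (adjusted p = 0.0245), and the difference between the batches did not pass (adjusted p = 0.0901). It was the only MRP gene called in that batch, 1 lower and 0 higher beside a background of 0.236% and 0.329%. Leaving out any 1 of the 8 libraries other than DEX replicate 30 took its adjusted p to between 0.0516 and 0.0977, at log2 fold changes of -1.23 to -1.08, and without DEX replicate 30 it was 0.0114 at -1.33. In the same libraries Mrpl53 was the single MRP gene higher in DEX + RU-486 than in DEX (0.92, adjusted p = 0.0439), 1 higher and 0 lower beside a background of 0.747% and 0.811%. Most exon bases of Mrpl53 lie in Gm42688 on the same strand, so its counts are uncertain whatever the strand setting.

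Mrpl36 (chr13:73328513-73332178) was also low in intact batch 2, at 3.59, 3.04, 2.69 and 3.39 CPM in control and 0.825, 1.51, 2.33 and 2.80 in DEX, with 1 DEX library inside the control range. Over the libraries of RIN 6 or above Mrpl36 differed by -0.62 ± 0.18 (SE; edgeR adjusted p = 0.0164). Mrpl15 (chr1:4773206-4785739), a core protein of the large subunit, was the only MRP gene that rose at RIN 6 or above. It was at 20.8, 17.6, 18.8 and 14.6 CPM in control and at 30.4, 25.9, 26 and 21.8 in DEX of intact batch 2, so every DEX library was above every control library there. In batch 1 control had 22.1 to 28.5 CPM and DEX 20.2 to 32.6, which overlap. The log2 fold change of Mrpl15 over both was 0.32 ± 0.11 (SE, adjusted p = 0.0331). The other genes that fell at RIN 6 or above were Mrpl19 (-0.38), Mrpl20 (-0.34), Mrpl13 (-0.28), Mrpl37 (-0.26), Mrpl41 (-0.25) and Mrps17 (-0.25), with adjusted p from 0.00991 to 0.0426.

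**Figure D3:**
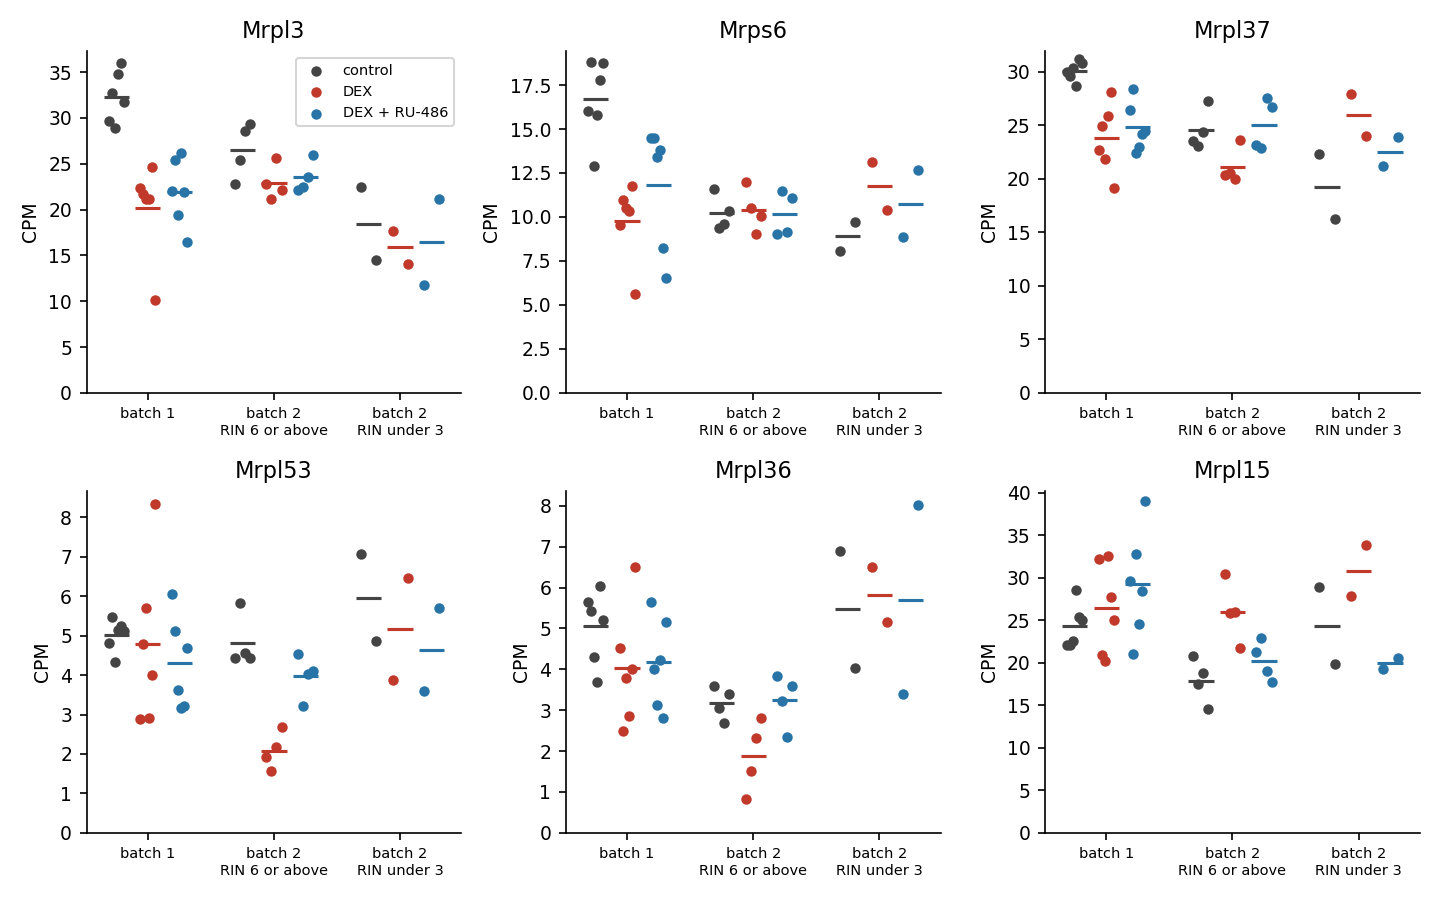
Level in CPM (y axis) of Mrpl3, Mrps6, Mrpl37, Mrpl53, Mrpl36 and Mrpl15 in each library, by treatment and batch and RIN class (x axis), 1 point per library and a bar at each mean. Mrpl3 and Mrps6 separate DEX from control in batch 1 only, and Mrpl53 and Mrpl15 in the intact libraries of batch 2 only.

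Within batch 1 alone, 7 MRP genes fell in DEX and 0 rose (background 9.99% lower and 8.99% higher). They were Mrps6, Mrpl3, Mrpl16 (-0.42), Mrps27 (-0.41), Mrps17 (-0.38), Mrps35 (-0.35) and Mrpl37 (-0.31), which is 4 small and 3 large subunit genes. In DEX + RU-486 of batch 1, Mrpl11, Mrpl3 and Mrpl41 fell and 0 rose (background 8.46% and 6.92%). In batch 1 all 6 DEX libraries were below all 6 control libraries for 4 MRP genes, Mrpl3, Mrpl37, Mrps35 and Mrps6, and above for 0, beside 6.66% and 3.2% of all genes. Mrpl37 spanned 28.7 to 31.2 CPM in control libraries against 19.1 to 28.1 in DEX, and Mrps35 14.8 to 16.7 against 11.1 to 12.6. In intact batch 2, 4 genes were below in all 4 DEX libraries (Mrpl13, Mrpl47, Mrpl53 and Mrpl54) and 3 above (Mrpl15, Mrpl42 and Mrps21), beside 7.03% and 4.47% of all genes. No gene was in the lists of both batches.

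Between the intact libraries of batch 1 and batch 2, which share no library, 28 genes were lower in DEX in both, 10 higher in both, 21 lower in batch 1 and higher in batch 2, and 19 the reverse. The signs matched for 48.7% of MRP genes, 66.3% of RPGs and 59.4% of all genes, and Spearman's rho across genes was 0.04 for the 78 MRP genes and 0.21 for all genes, given as descriptions since genes of a library share its depth and RIN. The difference of the DEX effect between batches passed the test for 0 MRP genes over all libraries (by unadjusted p under 0.05, 6 were higher and 0 lower beside 6.39% and 6.47% of all genes, and DESeq2 called Mrps6 higher and 0 lower beside 0.914% and 0.971% of all genes) and, at RIN 6 or above, for 3 higher and 0 lower (background 3.18% and 1.07%). These were Mrps6 (0.69, edgeR adjusted p = 0.0410), Mrpl42 (0.59, adjusted p = 0.0353) and Mrps35 (0.49, adjusted p = 0.0430), with log2 fold changes in the intact libraries of -0.60, -0.30 and -0.31 in batch 1 and of 0.04, 0.23 and 0.12 in batch 2. Mrpl42 was at 21.3, 23.6 and 29 CPM in batch 1 control (lowest, median, highest) and 15.6, 18.4 and 22.4 in DEX, against 15.7 to 18.5 in intact batch 2 control and 19.4 to 21.1 in DEX.

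**Figure D4:**
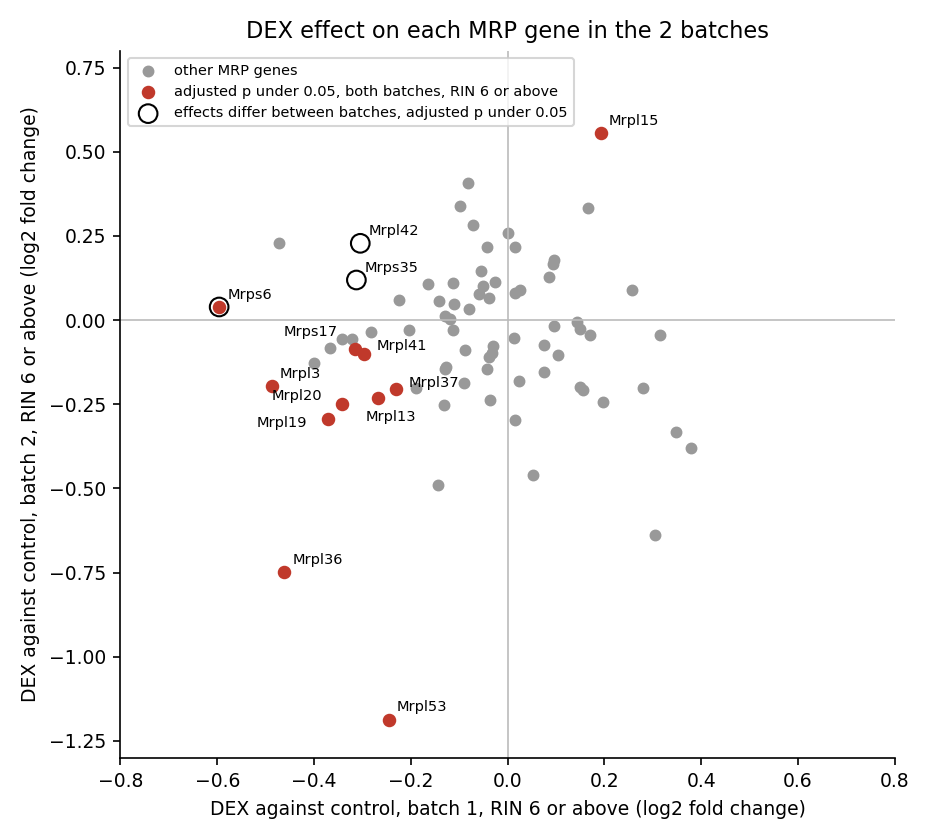
Log2 fold change of DEX against control for each of the 78 MRP genes in the intact libraries of batch 1 (x axis) and of batch 2 (y axis), with genes labelled that passed at RIN 6 or above (red) or whose effect differed between batches (ringed). The points spread over all 4 quadrants, with 28 lower in both and 10 higher in both (Spearman's rho 0.04, n = 78 genes).

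Few of the other nuclear genes of mitochondrial translation passed in DEX, at shares that can be read beside the 11.9% lower and 7.83% higher of all genes in the same fit. At RIN 6 or above, among 5 mitoribosomal proteins without an Mrp symbol 0 passed in DEX. Of 24 genes of ribosome assembly and ribosomal RNA modification, Nsun4 rose (0.50) and Rbfa fell (-0.24). Of 15 translation factors 2 fell, Gfm1 (-0.31), the elongation factor that moves the ribosome along the mRNA, and Lrpprc (-0.24), which stabilises mitochondrial mRNAs. Of 17 mitochondrial aminoacyl-tRNA synthetases 2 fell, Ears2 (-0.43) and Mars2 (-0.46). Both ribosomal RNAs rose, mt-Rnr1 by 0.82 and mt-Rnr2 by 0.94 log2 units (edgeR adjusted p = 0.0195 and 0.0064), and 5 of 13 mitochondrially encoded mRNAs rose, among them mt-Nd3 (1.25) and mt-Nd6 (0.62). With all libraries 0 of these genes passed, and 11 of the 13 mRNAs were higher at an unadjusted p under 0.05. Within the treatment groups of batch 1 both ribosomal RNAs fell with RIN. The slopes were -0.53 for mt-Rnr1 and -0.47 for mt-Rnr2 in log2 units per RIN unit (edgeR adjusted p = 0.000759 and 0.00149). For mt-Nd6 the slope was -0.33 (adjusted p = 0.00582) and for mt-Nd3 -0.36 (adjusted p = 0.199). The part of RIN in the rise of these mitochondrial RNAs was not tested.

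Cell type markers moved in the same libraries. In DEX at RIN 6 or above 4 of 8 neuronal markers fell, 4 of 5 astrocyte and 5 of 6 oligodendrocyte lineage markers rose, 1 of 4 genes of dividing cells rose, and 0 of 3 microglial and 0 of 4 vascular and meningeal markers passed. In batch 1 the summed neuronal markers were at 2458 to 3219 CPM in control against 1830 to 2797 in DEX, and the oligodendrocyte lineage markers at 57.0 to 266 and 451 to 2050. In intact batch 2 the neuronal sums were 2019 to 2320 and 2061 to 2260 CPM, which overlap, and the oligodendrocyte lineage sums 366 to 475 and 589 to 982. Microglial sums stayed at 2.46 CPM or below in these libraries. The part of these shifts in the MRP values was not tested.

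More MRP genes differed between RIN classes than between treatments, and in both directions. In batch 2, between 6 libraries with a RIN under 3 and 12 with 6 or above, 28 MRP genes were higher and 9 lower at low RIN (background 28.4% and 26.8%), which is 35.9% and 11.5% of the family. The family's median log2 fold change was 0.16 and that of the RPGs 1.59, with 80 of 83 RPGs higher and 0 lower. Scaling on all counts outside chromosome M with no factors turned the MRP median to -0.10 (13 higher, 21 lower; background 19.9% and 36.9%), but it moved the median of all genes from 0.04 to -0.22, and the family stood 0.12 above all genes under both scalings. This distance depended on the genes and libraries taken, since it was 0.22 with at least 10 counts in every library, 0.00315 in control libraries alone and -0.79 with no low-count filter, where the median of all genes was 0.77 and that of the family -0.02. By subunit, 18 large subunit genes were higher and 3 lower of 51, and 9 small subunit genes higher and 6 lower of 26. In control libraries alone 9 were higher and 7 lower of the 78 (background 16.6% and 18.6%), with a median of 0.01. Summed neuronal markers were at 4991 to 9067 CPM at RIN under 3 and 2019 to 2320 in intact batch 2. Markers of dividing cells (36.4 to 61.4, 6.62 to 22.9) and of vascular and meningeal cells (4.91 to 14.1, 1.24 to 3.69) were apart too. Astrocyte, oligodendrocyte lineage and microglial sums overlapped. The part of these markers in the RIN response was not tested.

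Mrps21, a small protein of the small subunit, rose most at low RIN. Its lowest, median and highest level was 7.20, 9.27 and 11.2 CPM in intact and 20.4, 24.4 and 34.5 in low RIN libraries, with no overlap (log2 fold change 1.45 ± 0.10 SE, edgeR adjusted p = 2.94e-10). Mrpl54 was at 2.75, 6.11 and 7.99 CPM and at 9.41, 12.3 and 19.4 (1.13), and Mrpl12 at 18.8, 22 and 24.9 and at 33.5, 38.6 and 48.5 (0.83, adjusted p = 1.44e-07), again apart. Mrpl36 (1.08), Mrpl52 (1.07), Mrpl34 (1.00), Mrpl42 (0.83) and Mrpl30 (0.74) followed. The gene that fell most was Mrps10 (chr17:47368887-47381417), a small subunit protein of bacterial descent, at 22.7, 25 and 27.3 CPM in intact and 8.35, 14.7 and 18.1 in low RIN libraries (-0.88 ± 0.12 SE, adjusted p = 2.22e-06). Mrpl1, of the stalk near the exit site for tRNA, was at 10.5, 12.8 and 14.4 CPM and at 2.82, 7.45 and 8.78 (-0.87). Both were lower in every low RIN library than in every intact one. Mrps9 (-0.64), Mrps22 (-0.64), Mrpl50 (-0.56), Mrpl3 (-0.53), Mrps5 (-0.49) and Mrps18b (-0.48) also fell.

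Transcript length went with this response. Of 17 MRP genes whose longest transcript is at most 1000 bases, 11 were higher and 0 lower at low RIN, with a median log2 fold change of 0.52, where the 564 protein-coding genes of that length had 0.72. For 24 genes from 1000 to 2000 bases the median was 0.22 (10 higher, 2 lower; protein-coding genes 0.20), for 15 from 2000 to 3000 bases -0.07 (2 and 2; 0.01), and for 22 longer ones -0.05 (5 and 5; -0.06). In each length class the median of the family thus lay within 0.20 log2 units of that of protein-coding genes. Over protein-coding genes, from the shortest class to the longest, 56.0%, 32.5%, 26.4% and 28.9% were higher and 5.85%, 16.8%, 27.4% and 35.1% lower. The MRP shares were 64.7%, 41.7%, 13.3% and 22.7% higher and 0%, 8.33%, 13.3% and 22.7% lower. RPGs of at most 1000 bases had a median of 1.65. Spearman's rho between length and log2 fold change was -0.48 across the 78 MRP genes, -0.23 across RPGs and -0.09 across protein-coding genes, as descriptions across genes of the same libraries. The median longest transcript was 1867 bases for MRP genes, 1094 for RPGs and 3506 for protein-coding genes tested.

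**Figure D5:**
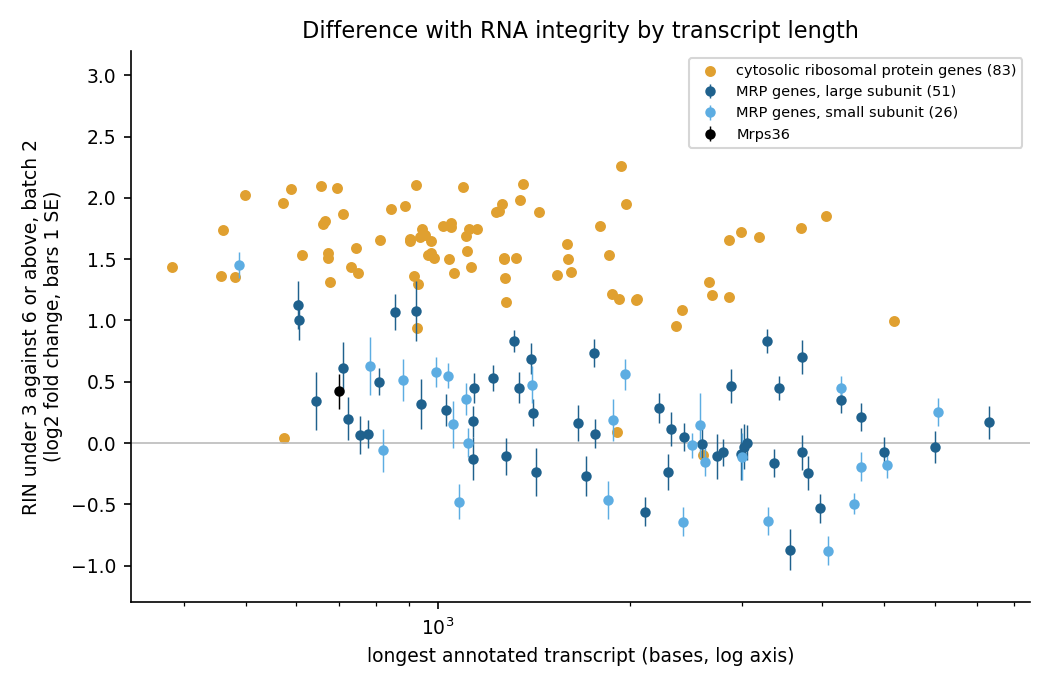
Log2 fold change of RIN under 3 against RIN 6 or above in batch 2 (y axis) against the length of the longest annotated transcript on a log scale (x axis), for the MRP genes (bars are 1 SE) and the RPGs. Short MRP genes lie above 0 (median 0.52 up to 1000 bases) and long ones around 0, while 80 of 83 RPGs were higher, at all lengths.

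Within batch 1, where RIN was taken as a number inside the treatment groups, 4 MRP genes rose with RIN, Mrpl50 (0.29 log2 units per RIN unit), Mrpl3 (0.27), Mrps6 (0.27) and Mrps23 (0.22), and Mrpl36 (-0.25) and Mrpl52 (-0.22) fell (background 6.5% rising and 7.92% falling). Of the RPGs 59 of 83 fell with RIN and 0 rose. Mrpl3 and Mrpl50 were low at low RIN in both batches, and Mrpl36 and Mrpl52 high in both. Without the 2 batch 1 libraries of RIN 3.9 and 5.6, 0 MRP genes rose and 1 fell (background 3.15% and 5.65%). None of the rising calls thus held in this fit, which has fewer libraries and a narrower range of RIN.

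Between the batches most of the family differed in the same direction. Between the intact libraries of the batches, 56 MRP genes were lower in batch 2 and 2 higher (background 24.7% and 23.4%), with a median log2 fold change of -0.30 beside 0.01 for all genes. RPGs had a median of -0.33, with 70 of 83 lower and 0 higher. In the large subunit 39 of 51 fell and 0 rose, and in the small subunit 16 of 26 fell and 2 rose. Without scaling factors outside chromosome M the counts were 23 lower and 6 higher (background 12% and 37.7%) and the median -0.10, with the median of all genes at 0.20. The distance from all genes was -0.31 under both scalings, -0.35 in control libraries alone, -0.41 with no low-count filter and -0.20 with at least 10 counts in every library. Mrps23 was at 6.51, 11.1 and 13.4 CPM in batch 1 (lowest, median, highest of 16) and 4.02, 6.64 and 9.43 in batch 2 (of 12), which overlap (log2 fold change -0.75 ± 0.11 SE, edgeR adjusted p = 2.21e-06). Mrpl12 was at 26.6, 34.4 and 42.4 CPM and at 18.8, 22 and 24.9, which do not overlap (-0.67 ± 0.07 SE, adjusted p = 1.82e-08). Mrpl54 (-0.70), Mrps12 (-0.66), Mrpl36 (-0.63), Mrpl41 (-0.62), Mrps21 (-0.61) and Mrps28 (-0.58) followed. The 2 that rose, Mrps10 (0.31, adjusted p = 0.000888) and Mrps5 (0.17), are both small subunit proteins, and both fell at low RIN.

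Batch also went with the culture's markers and with other mitochondrial genes. Slc17a7 of glutamatergic neurons was lower in batch 2 (-1.82 log2), and Gad1 (1.44) and Gad2 (1.46) of inhibitory neurons and Pdgfra of oligodendrocyte progenitors (2.25) were higher. These are single genes of their lists. Oligodendrocyte lineage sums in intact control were 57.0 to 266 CPM in batch 1 and 366 to 475 in batch 2. The batches overlapped in DEX (451 to 729, 589 to 982) and in DEX + RU-486 (206 to 608, 124 to 356). Of the 13 mitochondrially encoded mRNAs 12 were higher in batch 2, opposite to the MRP genes. Of the 5 mitoribosomal proteins without an Mrp symbol, Chchd1 (-0.61), Gadd45gip1 (-0.49), Aurkaip1 (-0.43) and Dap3 (-0.15) fell like most of the family and Ptcd3 (0.30) rose. At low RIN Ptcd3 fell (-1.05) and Aurkaip1 rose (0.62). The part of cell makeup in the batch difference was not tested. For the 26 MRP genes that start back to back with another gene, the median batch difference was -0.35 log2 and that of their partners 0.01. In the Mrpl36 and Ndufs6 pair both fell (-0.63 and -0.60), and in the Mrps12 and Sars2 pair the values were -0.66 and -0.01.

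Some members have roles of their own. The 3 relatives of bacterial S18 parted at low RIN, with Mrps18a of the large subunit at 0.29 (edgeR adjusted p = 0.0484), Mrps18b of the small subunit at -0.48 (adjusted p = 0.00873) and Mrps18c at -0.06. Mrpl58, which frees stalled ribosomes by releasing the unfinished protein, was at -0.01 at low RIN and -0.20 in batch 2. Mrpl55 stood at 0.32 and -0.30, and Mrps30 at -0.25 and -0.03, in the same comparisons. Mrps36 of the 2-oxoglutarate dehydrogenase complex passed in both, at 0.42 and -0.44. In DEX at RIN 6 or above none of these genes nor Mrpl12 (-0.12) and Mrps12 (-0.02) passed the test, and their log2 fold changes lay between -0.18 (Mrpl55) and 0.05 (Mrps18a).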

How the data were processed

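The deposited table holds raw counts per Ensembl mouse gene for 36 libraries, made by the authors; the submitters' processing notes name HISAT2 2.1.0, Subread 1.5.0-p2 and genome build GRCm38, and the annotation release and strand setting are not given in the sources used here. The study describes an alignment to a genome extended by the spliced mRNAs of RPGs, on which mismatched and multiply placed reads were dropped. It states that the files of these 36 libraries went through the pipeline it had described. By that description RPG and pseudogene counts were assigned otherwise than those of MRP genes, for which no spliced mRNAs were added. This bears on each value of RPGs set beside the MRP genes. The labels name poly-A RNA and the study's methods total RNA libraries. Symbols were matched to GENCODE M21 (55227 of 55492 identifiers).

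Genes with a mean count above 5 (20355) entered the test of edgeR 4.0.16, run in R 4.3.3 (TMM factors, quasi-likelihood test, Benjamini-Hochberg adjustment over all of them, threshold 0.05), with batch as covariate for treatments and treatment as covariate for RIN and batch. DESeq2 1.42.0, other scalings, filters, RIN classes and batches were alternatives. CPM values use TMM library sizes, and log2 CPM a prior count of 2. On simulated data for DEX against control the test found 73 of 100 genes changed 2-fold and 95 of 100 changed 4-fold, and for RIN class 70 and 95. No smaller change and no other batch or RIN shift was simulated, so these rates do not cover changes under 2-fold. No 2 libraries had identical counts. Libraries held 12133485 to 82437454 counts, and no interval was needed for single counts.

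Named in a treatment comparison were the MRP genes past the threshold, or else the 8 with the smallest p; in the RIN and batch comparisons the 8 called genes with the highest and the 8 with the lowest fold change; the 5 highest and 5 lowest by level per kb of exon; 9 genes by role; and from the lists of related genes and cell type markers up to 4 called genes each. Members and lists were chosen with earlier results of these data known.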

Additional observations from a re-analysis of the deposited data

Results flagged for a closer look

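Groups of 4 to 6 libraries of 1 treatment, batch and RIN of 6 or above were checked for 1 library that stands apart. Dixon's test at 95% was run on 66 groups, for levels of named MRP genes, the family level and the share of both mitochondrial ribosomal RNAs. It found 8 cases, where chance alone gives about 1 in 20. For the mean log2 CPM of the family, control library 3 of batch 1 was at 3.65 while the other 5 were at 3.81 to 3.89, and DEX + RU-486 library 13 of batch 1 was at 3.92 while the other 4 were at 3.61 to 3.68. The same library 13 had 15.5 CPM of Mrpl54 against 6.52 to 8.37 in the others, and DEX + RU-486 library 34 of batch 2 had 7.57 CPM of Mrpl54 against 5.60 to 5.73. Mrps6 was at 8.25 CPM in DEX + RU-486 library 17 of batch 1 (others 13.4 to 14.5), and Mrpl13 at 16.2 CPM in DEX library 11 of batch 1 (others 10.6 to 11.7). Mrpl37 was at 23.6 CPM in DEX library 30 of batch 2 (others 19.97 to 20.5), and Mrpl53 at 5.84 CPM in control library 22 of batch 2 (others 4.43 to 4.55).

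The effect of DEX differed between batches, by an interaction term in edgeR's quasi-likelihood test over the libraries of RIN 6 or above, for Mrps6 (batch 2 minus batch 1, log2 0.69), Mrpl42 (0.59) and Mrps35 (0.49). In the same fit 3.18% of all genes were higher and 1.07% lower, so the number of MRP genes is near that share. Over all libraries no MRP gene passed, beside 0.133% of all genes higher and 0.0393% lower.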

How the results depend on the processing

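No paired analysis was possible because the library numbers run from 1 to 36 without repeats, so the groups share none. For DEX against control (0 genes called over all libraries), DESeq2 called 1 lower (all genes 1.47%), RIN of 6 or above 1 higher and 10 lower (7.83% and 11.9%), batch 1 alone 7 lower (9.99%), its libraries of RIN 6 or above 4 lower (9.72%), and those of batch 2 1 lower (0.236%), where the shares in brackets here and below are those of all genes in the same fit and direction. For DEX + RU-486 against control, batch 1 alone called 3 lower (8.46%) and RIN 6 or above 2 lower, in both batches (5.87%) or in batch 1 (7.1%); against DEX, batch 2 at RIN 6 or above called 1 higher (0.747%). For RIN class, 14 were higher and 14 lower with no low-count filter (31.1% and 15.1%), 13 and 21 without scaling factors outside chromosome M (19.9% and 36.9%), and 9 higher in control libraries alone (16.6%). For the RIN slope, 8 rose with DESeq2 (9.41%), 7 with at least 10 counts in every library (11.8%), 14 without scaling factors (13.5%), 14 without the treatment covariate (14.8%) and 0 at RIN 6 or above (3.15%); 0 fell with no filter (2.72%) or no factors (4.93%), and 1 with mitochondrial genes left out (7.64%) or at RIN 6 or above (5.65%). For batch, 1 was higher with no filter (11.8%) or in control libraries alone (21.2%), and 6 higher and 23 lower without factors (37.7% and 12%). For the difference of the DEX effect between batches, DESeq2 called 1 higher (0.914%) and RIN 6 or above 3 (3.18%).

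Of the single genes named, signs turned only in fits to some of the libraries. In DEX, Mrps6 was at 0.17 in batch 2 alone, 0.039 at RIN 6 or above there and 0.39 at RIN under 3, and Mrps17 at 0.11 at RIN under 3. In DEX + RU-486 against control, Mrpl2 (0.052) and Mrpl19 (0.14) turned in batch 2 at RIN 6 or above, Mrpl11 (0.023) and Mrpl19 (0.10) in batch 2 alone, and Mrpl11 (0.28) at RIN under 3. Against DEX, Mrps2 (-0.033), Mrpl19 (-0.0093) and Mrpl15 (0.019) turned in batch 1 at RIN 6 or above, Mrpl19 (-0.0037) and Mrpl15 (0.13) in batch 1 alone, and Mrpl32 (-0.31) at RIN under 3. The cause was not tested. Leaving out 1 library, the family's difference was -0.12 to -0.07 in DEX, -0.11 to -0.07 in DEX + RU-486, and -0.02 to 0.04 between them. The alternatives without scaling factors outside chromosome M, without mitochondrial genes and at RIN under 3, and the libraries left out of batch 2, were chosen after seeing the data.

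The smallest member counts (15 in 1 library) and 4 libraries a group limit the batch 2 values of low genes such as Mrpl53 and Mrpl36.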
